A study of Homo sapiens with 6 samples.

Results

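The genes described here encode the initiation and elongation factors of translation, the proteins that bring messenger RNA and initiator tRNA to the cytosolic ribosome and then move it along the coding sequence. They were chosen by name from the coding genes of the count table: symbols that begin with EIF and a digit from 1 to 6, or with EEF1 or EEF2. The eIF2 kinases (EIF2AK genes), the eIF4E-binding proteins (EIF4EBP genes), EEF1E1 and the EEF1AKMT methyltransferases were left out. The rule found 58 genes among the 30651 listed, and 55 of them had enough counts to be tested. EIF1AY, EIF2S3B and EIF4E1B did not pass the filter on low counts and are given no value. The rule also holds a few genes that carry a factor's name without being the factor: EIF1AD, EIF4ENIF1, EEF2K, EEF2KMT and EEF1AKNMT.

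RNA was measured in 6 libraries of PC-3 cells, a human prostate cancer line that was set up from a metastasis in bone. The MTA1 group held 3 libraries, whose data columns carry the prefix shMTA1, the usual way to write a short hairpin RNA against MTA1. The Ctrl group held 3 libraries, whose columns carry the prefix NC. The MTA1 protein belongs to NuRD, a chromatin-remodelling complex, and the labels mention lentivirus, transfection and screening for stable clones for all 6 libraries. The number of hairpins or clones is not given in the labels, nor whether the libraries of a group came from separate cultures, so the p-values rest only on how far these libraries differ from each other, which may be technical spread. Libraries held 29909172 to 30938820 counts in the MTA1 group and 31726013 to 33849262 in Ctrl. MTA1 itself had 528, 572 and 519 counts in the MTA1 libraries, against 1185, 1331 and 1352 in the Ctrl libraries.

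As a check of the cell label, marker genes were summed in CPM, here counts divided by the total of the library. Elsewhere, unless stated, CPM are counts divided by the TMM-scaled size of the library. KRT8, KRT18, EPCAM and VIM summed to 3800 to 4130 CPM in the MTA1 libraries and 3770 to 4030 CPM in the Ctrl libraries. KLK3, a product of luminal prostate cells, had no count in the MTA1 libraries and at most 1 in a Ctrl library. Of 6 fibroblast markers, all were listed, and their sum ran from 34.5 to 36.8 CPM in the MTA1 libraries and from 44.9 to 50 CPM in the Ctrl libraries; COL1A1 held most of it in Ctrl, and PDGFRA was at 1 to 5 counts. Of 6 leukocyte markers, 5 were listed and summed to 1 to 1.4 CPM in the MTA1 libraries and 1.39 to 2.01 CPM in the Ctrl libraries. The part of these markers in the results on translation factors was not tested.

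Translation begins when eIF2 carries the initiator tRNA to the small ribosomal subunit with eIF1, eIF1A, eIF3 and eIF5, while the cap-binding eIF4 factors open the 5′ end of the message and recruit that complex. eIF2B recharges eIF2 with GTP, and eIF5B joins the large subunit. In elongation, eEF1A delivers aminoacyl-tRNA, the eEF1B subunits recharge eEF1A, and eEF2 moves the ribosome by a codon.

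In the MTA1 group, the elongation factors and most eIF3 subunits were lower than in Ctrl, whereas the eIF4G scaffolds and the helicase EIF4A2 were higher. Of the 55 tested members, 16 rose and 25 fell at an adjusted p under 0.05 (edgeR's quasi-likelihood test, Benjamini-Hochberg over 15423 genes), and 14 did not pass. As a share, 29.1% of the members rose, beside 29.5% of all tested genes, and 45.5% of the members fell, beside 28.6% of all tested genes, so the share that rose was that of the background and the share that fell was above it. In either direction 74.5% of the members were called, beside 58.1% of all tested genes. Counts per complex below are to be read beside these shares of all tested genes. The members that rose include EIF3C, EIF3CL and EIF4A1, whose counts have limits given below. The members' median log2 fold change (MTA1 group over Ctrl) was -0.11, beside 0.0015 for all tested genes. EIF4E3 passed the filter only through its level in Ctrl; without it 54 members were tested, of which 24 fell. In 25 members (45.5%) every MTA1 library lay below every Ctrl library, beside 30.6% of all tested genes. In 16 members (29.1%) every MTA1 library lay above, beside 32.1% of all tested genes, and in 14 the groups overlapped. Fewer cells that use a gene and less of its RNA per cell cannot be told apart in these bulk libraries.

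**Figure D1:**
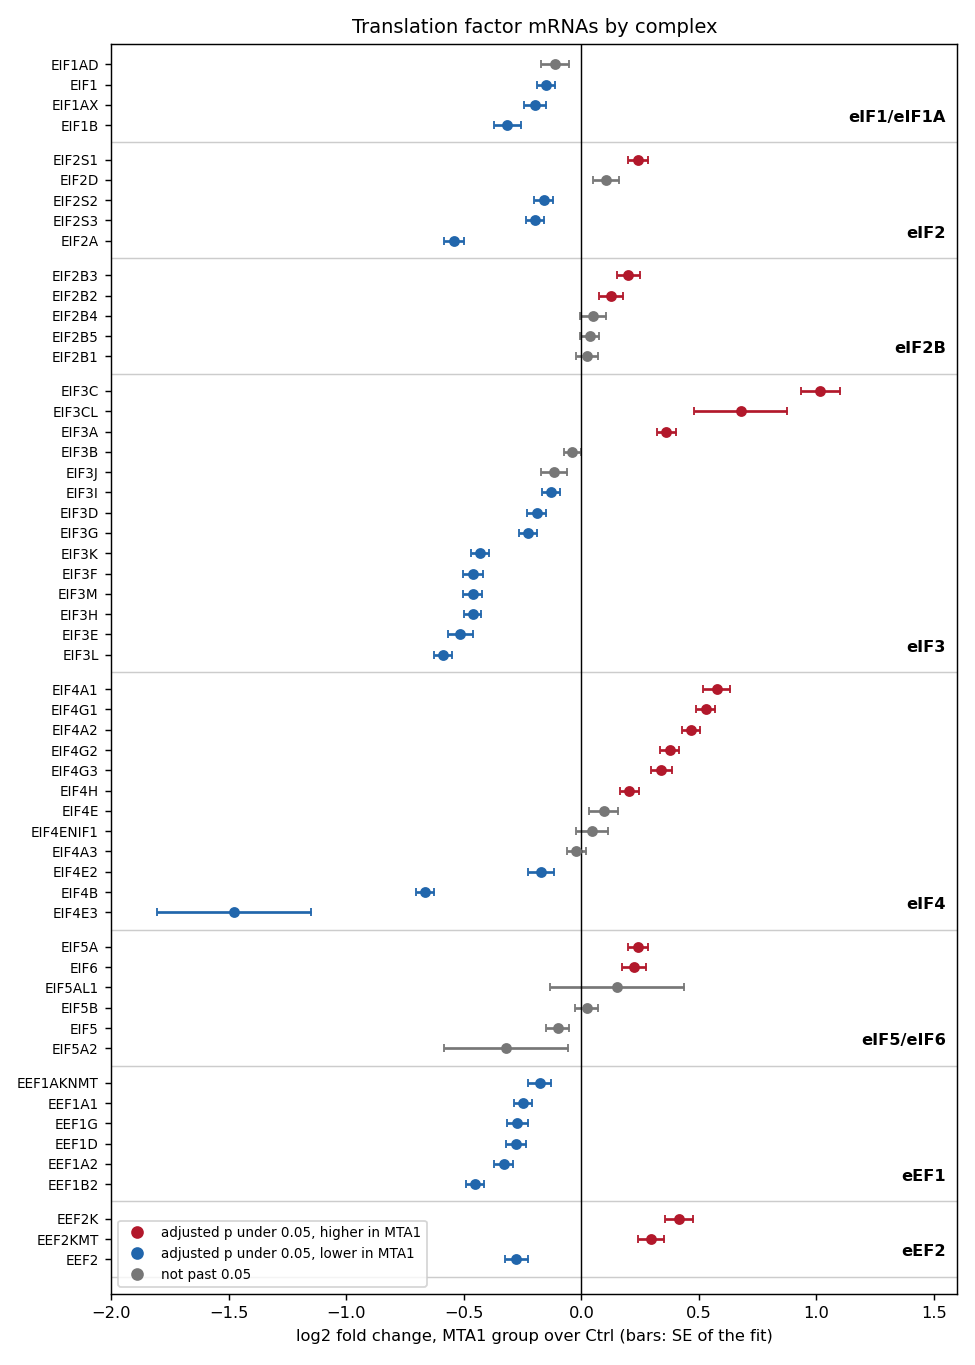
Log2 fold change of the MTA1 group over Ctrl (horizontal axis) for the 55 tested members, grouped by complex, with bars for the SE of the edgeR fit; colour marks the call at an adjusted p under 0.05. All 6 tested eEF1 members lie left of 0, eIF3 runs from EIF3L at -0.59 to EIF3C at 1.02, and the eIF4 group holds both EIF4B at -0.66 and EIF4G1 at 0.53.

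The starts of the messages were then set beside the calls. Many messages of the translation machinery begin with a C followed by an unbroken run of pyrimidines, the 5′ terminal oligopyrimidine (TOP) tract, through which mTOR and the RNA-binding protein LARP1 act on their translation and stability. The table of RefSeq starts (GRCh38.p14) matched 44 of the 55 tested members (80.0%). A tract was counted where an annotated start was a C followed by at least 4 pyrimidines, read on the gene's own strand. The 30-base windows below hold 15 bases before the start and 15 from it on, with the tract in capitals. The first 6 are the members with a tract that had the lowest log2 fold changes. EEF1A1, the best-known elongation factor, and EIF4A2, which has a tract but rose, were added after their values were seen, as were EIF2S1 and EIF4H, which rose and have no tract.
EIF4B, chr12:53006441-53006470, plus strand: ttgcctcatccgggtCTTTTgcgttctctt
EIF2A, chr3:150546772-150546801, plus strand: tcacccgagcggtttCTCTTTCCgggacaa
EIF3M, chr11:32583816-32583845, plus strand: gcgcggcccagttccCTTTTCCggtcggcg
EIF3F, chr11:7987322-7987351, plus strand: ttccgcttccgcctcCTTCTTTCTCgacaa
EEF1B2, chr2:206159880-206159909, plus strand: ccggtctcttcgggtCCTTTTTCCTCTCTT
EIF3K, chr19:38619173-38619202, plus strand: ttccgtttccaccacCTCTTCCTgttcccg
EEF1A1, chr6:73521018-73521047, minus strand: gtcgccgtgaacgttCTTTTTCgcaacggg
EIF4A2, chr3:186783562-186783591, plus strand: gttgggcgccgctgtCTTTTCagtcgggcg
EIF2S1, chr14:67360313-67360342, plus strand: gcgaggaggttccgcatgcgcggtggagtg
EIF4H, chr7:74174341-74174370, plus strand: ccttcctcgctcaccctggttcctctcgga

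EEF1B2 has another annotated start without a tract, and the tract of EEF1B2 runs to the end of its window. A tract was found at a start of 12 of the 44 matched members (27.3%), beside 746 of 9954 tested coding genes in the table (7.49%). Of the 12 members with a tract, 10 fell: EIF4B, EIF2A, EIF3M, EIF3F, EEF1B2, EIF3K, EEF2, EEF1A1, EIF2S3 and EIF3D. EIF4A2 rose, and EIF2D was not called. Their median log2 fold change was -0.35. Of the 32 matched members without a tract, 12 rose, 7 fell and 13 were not called, with a median of 0.041.

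Among all tested coding genes with a tract, 294 of 746 fell (39.4%) and 191 rose, with a median of -0.067. Among those without a tract, 29.1% fell. With the members and the ribosomal protein genes left out, 34.9% of 687 genes with a tract fell and 27.5% rose. A wider search looked for a tract beginning within 5 bases of a start on either side. It took in 21 members, of which 12 fell and 5 rose, and 29.4% of the tested coding genes. Of the 23 matched members with no tract there, 5 fell and 8 rose. The members' median log2 fold change was -0.19 with such a tract and 0.046 without. With that search 31.6% of the coding genes with a tract fell and 30.5% rose. Without the members and the ribosomal protein genes 30.3% fell and 31.1% rose, close to the 29.2% and 32.2% of genes with no tract there, so the difference between coding genes with and without a tract seen at the exact start was not seen with the wider search. An annotated start is not a measured one, and a match of letters is a description of the sequence.

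**Figure D2:**
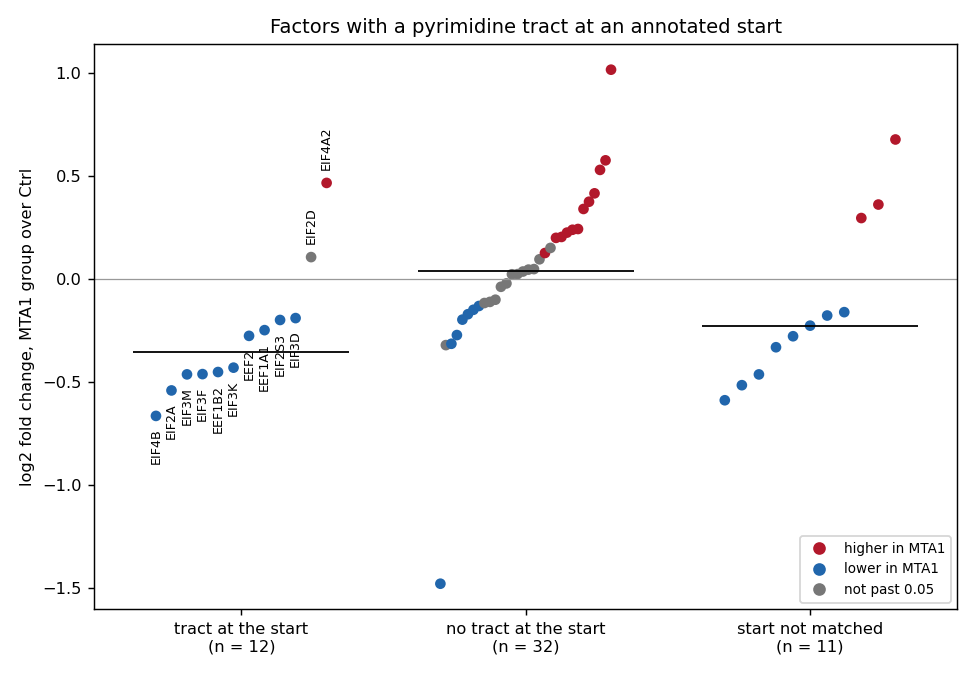
Log2 fold change of the MTA1 group over Ctrl (vertical axis) for the tested members with a pyrimidine tract at an annotated start (n = 12), without one (n = 32) and with no matched start (n = 11); each point is 1 gene, colour marks the call, and lines mark the medians. Of the 12 with a tract, 10 lie below 0 and were called lower; EIF2D and EIF4A2 lie above 0.

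Within eIF1 and eIF1A, which keep the scanning ribosome open and exact in its choice of start codon, 3 of 4 tested members fell and 1 was not called. EIF1B (ENSG00000114784.4, chromosome 3), a close copy of EIF1, had 19.5, 18.1 and 17.7 CPM in the MTA1 libraries, against 23.4, 22.9 and 22.4 CPM in the Ctrl libraries. The Ctrl libraries all lay above the MTA1 libraries (log2 fold change -0.31 ± 0.057, edgeR adjusted p = 9.22e-05). EIF1AX (ENSG00000173674.11), the X-linked gene of eIF1A, had 61.6, 59.9 and 57.3 CPM in the MTA1 libraries, against 67.6, 70.5 and 66.7 CPM in the Ctrl libraries, again without overlap (log2 fold change -0.20 ± 0.046, edgeR adjusted p = 0.00101). EIF1 had 184, 188 and 178 CPM in the MTA1 libraries, against 200.5, 206 and 203 CPM in the Ctrl libraries. It was lower in the MTA1 group without overlap (log2 fold change -0.15 ± 0.039, edgeR adjusted p = 0.00274), but the call was lost when libraries were scaled by their total alone (log2 fold change -0.081, adjusted p = 0.0826), which also moves the median of all tested genes to 0.0695. EIF1AD, named for its eIF1A-like domain, was not called (-0.11 ± 0.059); it passed when MTA1 replicate 3 was left out (-0.17, adjusted p = 0.0174).

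The subunits of eIF2 did not move together. EIF2S1 (ENSG00000134001.15, chromosome 14), the alpha subunit that stress kinases phosphorylate, had 129, 124 and 119.5 CPM in the MTA1 libraries, against 108, 103 and 104 CPM in the Ctrl libraries. Every MTA1 library was above every Ctrl library (log2 fold change 0.24 ± 0.043, edgeR adjusted p = 6.07e-05). The gamma subunit EIF2S3, which binds GTP and the initiator tRNA, fell, with 225, 223 and 220.2 CPM in the MTA1 libraries, against 259, 257 and 252 CPM in the Ctrl libraries (log2 fold change -0.20 ± 0.038, edgeR adjusted p = 0.000147). EIF2S2, the beta subunit, fell to 89.4% of its Ctrl level (-0.16 ± 0.040, edgeR adjusted p = 0.00166).

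EIF2A (ENSG00000144895.12, chromosome 3) is a single-chain protein that can also carry initiator tRNA and, despite its name, is not the alpha subunit of eIF2. It had 57.97, 57.7 and 56.7 CPM in the MTA1 libraries, against 83.9, 82.5 and 84.3 CPM in the Ctrl libraries. The groups stood well apart, and the MTA1 group had 68.7% of the Ctrl level (log2 fold change -0.54 ± 0.042, edgeR adjusted p = 1.24e-09). Its message begins with the tract of 8 pyrimidines shown above. EIF2D, a factor of recycling and alternative initiation, was not called (0.11 ± 0.055) and passed without Ctrl replicate 2 (0.15, adjusted p = 0.0422).

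In eIF2B, the exchange factor that recharges eIF2, 2 of 5 subunits rose and none fell, beside 29.5% and 28.6% of all tested genes. EIF2B3, part of the catalytic core, had 53.2, 50.1 and 52.01 CPM in the MTA1 libraries, against 46.9, 43.5 and 44.8 CPM in the Ctrl libraries. The groups did not overlap (log2 fold change 0.20 ± 0.048, edgeR adjusted p = 0.00141). EIF2B2, a regulatory subunit, had 30.9, 29.6 and 28.9 CPM in the MTA1 libraries, against 26.9, 27.5 and 27.5 CPM in the Ctrl libraries. Its call was marginal (log2 fold change 0.13 ± 0.051, edgeR adjusted p = 0.0403): it was lost without MTA1 replicate 1 (adjusted p = 0.14) or 2 (0.0716), and without Ctrl replicate 1 (0.127), 2 (0.0798) or 3 (0.0856). The regulatory subunits EIF2B1 (0.024 ± 0.049) and EIF2B4 (0.048 ± 0.055) and the catalytic EIF2B5 (0.036 ± 0.041) were not called. The 3 MTA1 libraries of EIF2B5 lay above the Ctrl libraries all the same.

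The genes of the scaffold eIF3 were split. Of its 14 tested genes, 3 rose, 9 fell and 2 were not called, with a median log2 fold change of -0.21. The 7 subunits D, E, F, H, K, L and M, which lie outside the core that budding yeast shares, all fell, from -0.59 (EIF3L) to -0.19 (EIF3D), with a median of -0.46. Of the 5 core subunits, EIF3A and EIF3C rose, EIF3G and EIF3I fell, and EIF3B was not called. The level listed for EIF3C was far below that of the other core subunits, as given below. EIF3J, a loosely bound subunit, was not called (-0.12 ± 0.056); it passed without MTA1 replicate 1 (-0.15, adjusted p = 0.0317).

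EIF3L (ENSG00000100129.18, chromosome 22), one of the outer subunits, fell most among the eIF3 genes. It had 119, 119.8 and 124 CPM in the MTA1 libraries, against 179, 185 and 181 CPM in the Ctrl libraries. No library of the MTA1 group came near the Ctrl range (log2 fold change -0.59 ± 0.039, edgeR adjusted p = 1.14e-10). EIF3E, which forms a module with EIF3D, EIF3K and EIF3L, had 95.2, 89.9 and 87.2 CPM in the MTA1 libraries, against 141, 129.5 and 119 CPM in the Ctrl libraries. The Ctrl libraries of EIF3E were spread more widely than those of EIF3L, but the groups did not overlap (log2 fold change -0.52 ± 0.053, edgeR adjusted p = 7.21e-08).

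The next 4 subunits had close log2 fold changes. EIF3H (-0.46 ± 0.038) and EIF3F (-0.46 ± 0.042), a pair with related domains, fell to 72.5% and 72.6% of Ctrl. EIF3M (-0.46 ± 0.040) and EIF3K (-0.43 ± 0.038) fell to 72.6% and 74.2% of Ctrl. EIF3D (-0.19 ± 0.041), a subunit that can itself bind the cap of some messages, fell to 87.7%. EIF3F, EIF3K, EIF3M and EIF3D carry the tract at their start; EIF3H, EIF3E and EIF3L were not matched in the table of starts.

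In the core, EIF3A (ENSG00000107581.13, chromosome 10), the largest subunit, had 921, 885 and 927 CPM in the MTA1 libraries, against 720.1, 692 and 715 CPM in the Ctrl libraries. All MTA1 libraries exceeded all Ctrl libraries (log2 fold change 0.36 ± 0.040, edgeR adjusted p = 1.56e-07). EIF3B, the core's RNA-binding partner of EIF3A, averaged 602 ± 8.97 CPM in the MTA1 group and 618 ± 9.07 CPM in Ctrl and was not called (-0.038 ± 0.038). EIF3G fell to 85.5% of Ctrl (-0.23 ± 0.038) and EIF3I to 91.3% (-0.13 ± 0.039); the call of EIF3I was lost with library totals alone (-0.063, adjusted p = 0.175) and with a correction for length and GC content (-0.052, adjusted p = 0.241).

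EIF3C had 13.7, 12.6 and 14.9 CPM in the MTA1 libraries, against 6.83, 6.32 and 7.20 CPM in the Ctrl libraries, which was 202% of the Ctrl level in mean and without overlap (log2 fold change 1.02 ± 0.082, edgeR adjusted p = 2.22e-09). Its near-identical copy EIF3CL had 4.30, 3.78 and 4.83 CPM in the MTA1 libraries, against 4.14, 1.95 and 2.04 CPM in the Ctrl libraries. The groups overlapped for EIF3CL (log2 fold change 0.68 ± 0.20, edgeR adjusted p = 0.00663), and its call was lost without Ctrl replicate 2 (0.48, adjusted p = 0.0532) or 3 (0.50, adjusted p = 0.0562). Reads can be split between the copies, so they were also summed: 18.0 ± 1.63 CPM in the MTA1 group and 9.50 ± 1.37 CPM in Ctrl, a log2 fold change of 0.93 ± 0.089 (edgeR adjusted p = 2.34e-08). EIF3C took between 62.2% and 78.0% of the summed counts. How reads that match both copies were counted is not given in the sources used here. A sum does not hold reads that were counted for neither copy. In deposited FPKM, counts scaled for length and depth, EIF3C averaged 1.79 in the MTA1 group and 0.847 in Ctrl. The lowest of the other core subunits, EIF3I, averaged 23.2 in the MTA1 group and 24.2 in Ctrl. The rise of EIF3C therefore describes only the reads that were counted for it.

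**Figure D3:**
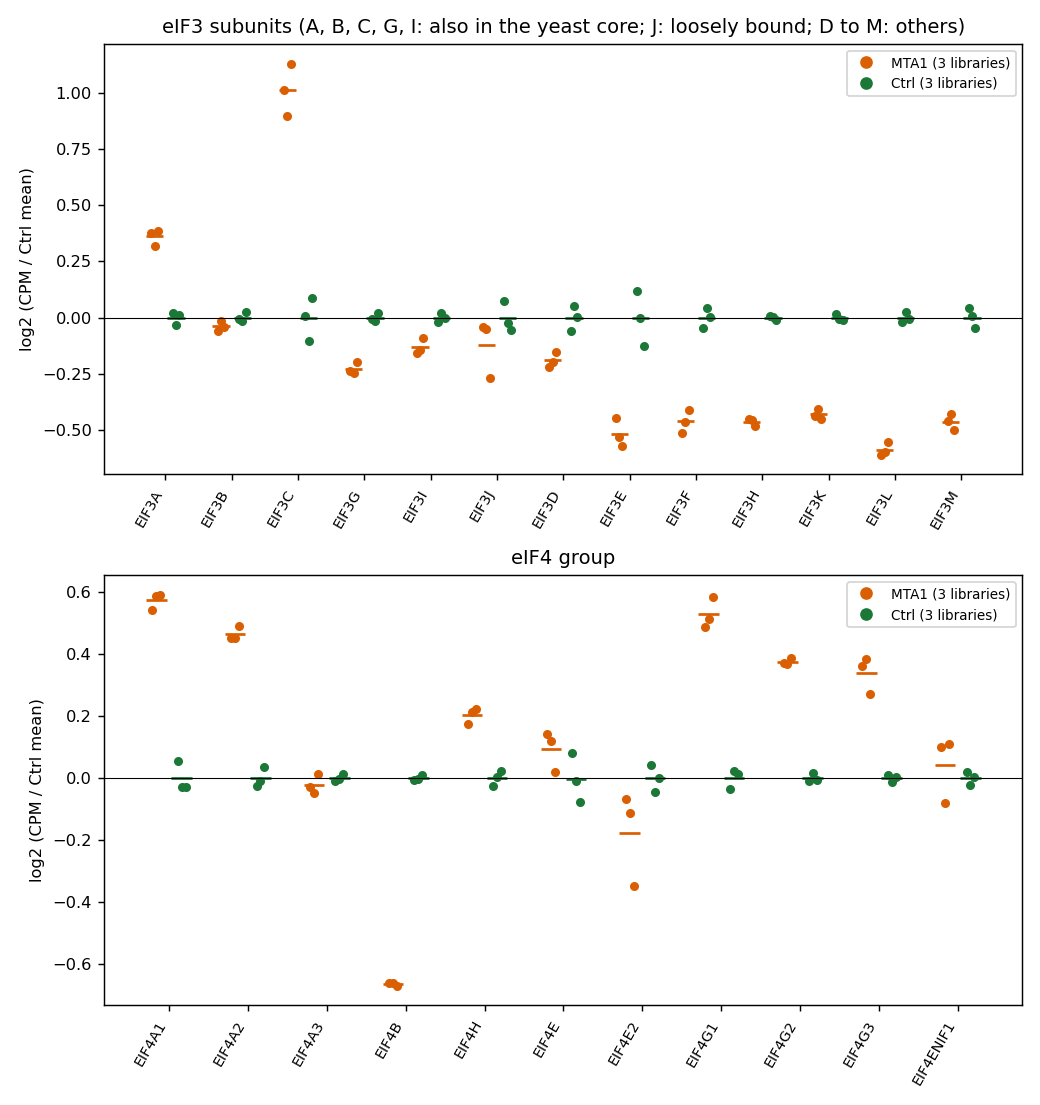
Log2 of CPM relative to the Ctrl mean (vertical axis) for eIF3 subunits (upper panel, without EIF3CL) and eIF4 factors (lower panel, without EIF4E3); each point is 1 library, MTA1 left and Ctrl right, and short lines are means. The 7 subunits from EIF3D to EIF3M lie below their Ctrl points in every MTA1 library, while EIF4A2, EIF4G1, EIF4G2, EIF4G3 and EIF4H lie above.

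The eIF4 group recognises the cap and unwinds the 5′ end. Of its 12 tested genes, 6 rose, 3 fell and 3 were not called, with a median of 0.15. Those that rose include EIF4A1, whose call has a limit given below. EIF4G1 (ENSG00000114867.22, chromosome 3), the main scaffold that ties cap-binding eIF4E to eIF4A and eIF3, had 614, 625 and 656 CPM in the MTA1 libraries, against 427, 444 and 441 CPM in the Ctrl libraries. The lowest MTA1 library was well above the highest Ctrl library (log2 fold change 0.53 ± 0.040, edgeR adjusted p = 8.67e-10). EIF4G3, its close relative, had 75.4, 76.7 and 70.8 CPM in the MTA1 libraries, against 59.2, 58.1 and 58.8 CPM in the Ctrl libraries, and EIF4G2 (DAP5), a relative that lacks the eIF4E-binding part, had 114, 114 and 116 CPM in the MTA1 libraries, against 87.9, 89.6 and 88.2 CPM in the Ctrl libraries. Neither overlapped (0.34 ± 0.045 for EIF4G3 and 0.38 ± 0.040 for EIF4G2), and both rose (edgeR adjusted p = 2.03e-06 and 9.69e-08).

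EIF4A2 (ENSG00000156976.17, chromosome 3), a helicase of the cap complex, had 216, 216 and 222 CPM in the MTA1 libraries, against 155, 156 and 162 CPM in the Ctrl libraries. It rose in each library relative to Ctrl (log2 fold change 0.47 ± 0.039, edgeR adjusted p = 3.26e-09), and was the single member with a start tract to do so. EIF4A1, the paralog that usually dominates in dividing cells, was listed at only 21.5, 22.1 and 22.2 CPM in the MTA1 libraries, against 15.3, 14.4 and 14.4 CPM in the Ctrl libraries (log2 fold change 0.58 ± 0.058, edgeR adjusted p = 4.57e-08). This gene overlaps the read-through gene SENP3-EIF4A1, which held 974, 987 and 1034 CPM in the MTA1 libraries, against 1002, 1048 and 1034 CPM in the Ctrl libraries, with no call (-0.042 ± 0.041). EIF4A1 took only 1.36% to 2.19% of the counts of the pair. Their sum was 1020.4 ± 31.6 CPM in the MTA1 group and 1043 ± 23.4 CPM in Ctrl and did not pass (-0.031 ± 0.040, edgeR adjusted p = 0.53). The rise of EIF4A1 therefore describes a small part of the reads at this locus. SENP3, the upstream gene, had no call (-0.023 ± 0.052). EIF4A3, a helicase of the exon junction complex, was not called (-0.021 ± 0.040).

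Of the cofactors that aid eIF4A, EIF4B fell and EIF4H rose. EIF4B (ENSG00000063046.18, chromosome 12) had 539, 539 and 535 CPM in the MTA1 libraries, against 848, 849 and 858 CPM in the Ctrl libraries. The libraries within each group differed little beside the gap between the groups, and the MTA1 group had 63.1% of the Ctrl level (log2 fold change -0.66 ± 0.038, edgeR adjusted p = 1.09e-11). EIF4B had the lowest log2 fold change of the members with a mean of at least 2 CPM. EIF4H rose to 115% of Ctrl (0.20 ± 0.040, edgeR adjusted p = 0.000187).

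EIF4E, the cap-binding protein itself, had 19.8, 19.5 and 18.2 CPM in the MTA1 libraries, against 19.00, 17.9 and 17.1 CPM in the Ctrl libraries, and the groups overlapped (log2 fold change 0.10 ± 0.061, edgeR adjusted p = 0.189). EIF4E2, a cap-binding relative that represses translation, had 170.1, 165 and 140.0 CPM in the MTA1 libraries, against 183, 173 and 178 CPM in the Ctrl libraries. It was lower in the MTA1 group (log2 fold change -0.17 ± 0.055, edgeR adjusted p = 0.012), but MTA1 replicate 3 stood apart from the other two, and without it the call was lost (-0.088, adjusted p = 0.0711). EIF4E3, another relative, was near the limit of the counts, with 0.328, 0.252 and 0.193 CPM in the MTA1 libraries, against 0.615, 0.916 and 0.638 CPM in the Ctrl libraries (log2 fold change -1.48 ± 0.33, edgeR adjusted p = 0.00067). EIF4ENIF1, which binds eIF4E and takes it into the nucleus, was not called (0.046 ± 0.068).

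Of the 6 tested genes named for eIF5, eIF5A, eIF5B and eIF6, 2 rose and none fell, beside 29.5% and 28.6% of all tested genes. EIF5A (ENSG00000132507.18, chromosome 17), the hypusine-bearing factor that helps the ribosome past difficult peptide bonds, had 516, 534 and 548 CPM in the MTA1 libraries, against 427, 466 and 460.2 CPM in the Ctrl libraries. The MTA1 libraries lay above the Ctrl libraries (log2 fold change 0.24 ± 0.043, edgeR adjusted p = 7.45e-05). EIF6, which keeps the large subunit from joining early, had 46.8, 43.7 and 46.7 CPM in the MTA1 libraries, against 37.96, 41.2 and 38.1 CPM in the Ctrl libraries (log2 fold change 0.23 ± 0.051, edgeR adjusted p = 0.000854). EIF5, which triggers GTP hydrolysis on eIF2 (-0.10 ± 0.049), and EIF5B (0.023 ± 0.049), which averaged 1279 ± 7.60 CPM in the MTA1 group and 1259 ± 102 CPM in Ctrl, were not called. EIF5A2, a rarer form of EIF5A, had 0.820, 0.568 and 0.677 CPM in the MTA1 libraries, against 0.680, 1.10 and 0.790 CPM in the Ctrl libraries. Its groups overlapped, and neither it (-0.32 ± 0.26) nor EIF5AL1 (0.15 ± 0.28), an EIF5A-like copy that can share reads with EIF5A, was called at these levels below 2 CPM.

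All 6 tested eEF1 genes fell (median log2 fold change -0.28), and they hold the 3 highest mean CPM of the members. EEF1D (ENSG00000104529.18), an exchange subunit, had 3001, 2859 and 3072 CPM in the MTA1 libraries, against 3644, 3499 and 3685 CPM in the Ctrl libraries. EEF1G (ENSG00000254772.10, chromosome 11), the structural subunit of the exchange complex, had 2475, 2602 and 2636 CPM in the MTA1 libraries, against 2987, 3127 and 3201 CPM in the Ctrl libraries. EEF1A1 (ENSG00000156508.19, chromosome 6), the carrier of aminoacyl-tRNA in most cells, had 2725, 2622 and 2659 CPM in the MTA1 libraries, against 3137, 3198 and 3174 CPM in the Ctrl libraries. In each of the 3 the groups did not overlap, and the log2 fold changes were alike at -0.28 ± 0.043 for EEF1D, -0.27 ± 0.043 for EEF1G and -0.25 ± 0.040 for EEF1A1 (edgeR adjusted p = 1.42e-05, 1.93e-05 and 2.35e-05). EEF1A1P5, a processed copy of EEF1A1 that can share its reads, had 1882, 1892 and 2059 counts in the MTA1 libraries, against 2097, 1888 and 2131 in the Ctrl libraries, and was not called.

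EEF1B2 (ENSG00000114942.14, chromosome 2), the other exchange subunit, fell most of the eEF1 genes. It had 995, 979.9 and 964 CPM in the MTA1 libraries, against 1365, 1311 and 1343 CPM in the Ctrl libraries, with tight libraries in each group (log2 fold change -0.45 ± 0.039, edgeR adjusted p = 6.21e-09). EEF1A2, the form of eEF1A typical of nerve and muscle, was also expressed here, with 405, 409 and 429 CPM in the MTA1 libraries, against 511, 524 and 529 CPM in the Ctrl libraries. It fell as well (log2 fold change -0.33 ± 0.040, edgeR adjusted p = 5.11e-07). EEF1AKNMT, a methyltransferase of eEF1A, fell to 88.4% of Ctrl (-0.18 ± 0.048), a call lost with library totals alone (-0.11, adjusted p = 0.0637).

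EEF2 (ENSG00000167658.16, chromosome 19), the translocase, fell, and the enzymes named after it rose. EEF2 had 1536, 1563 and 1701 CPM in the MTA1 libraries, against 1823, 2004 and 1985 CPM in the Ctrl libraries. The highest MTA1 library was below the lowest Ctrl library (log2 fold change -0.28 ± 0.048, edgeR adjusted p = 5.36e-05). EEF2K (ENSG00000103319.12, chromosome 16), the kinase that inhibits eEF2, had 19.03, 18.01 and 19.2 CPM in the MTA1 libraries, against 14.5, 13.98 and 13.7 CPM in the Ctrl libraries. It was higher in every MTA1 library (log2 fold change 0.42 ± 0.061, edgeR adjusted p = 6.9e-06). EEF2KMT, which methylates eEF2, had 32.9, 34.1 and 35.9 CPM in the MTA1 libraries, against 28.3, 26.6 and 28.9 CPM in the Ctrl libraries (log2 fold change 0.30 ± 0.054, edgeR adjusted p = 9.46e-05).

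**Figure D4:**
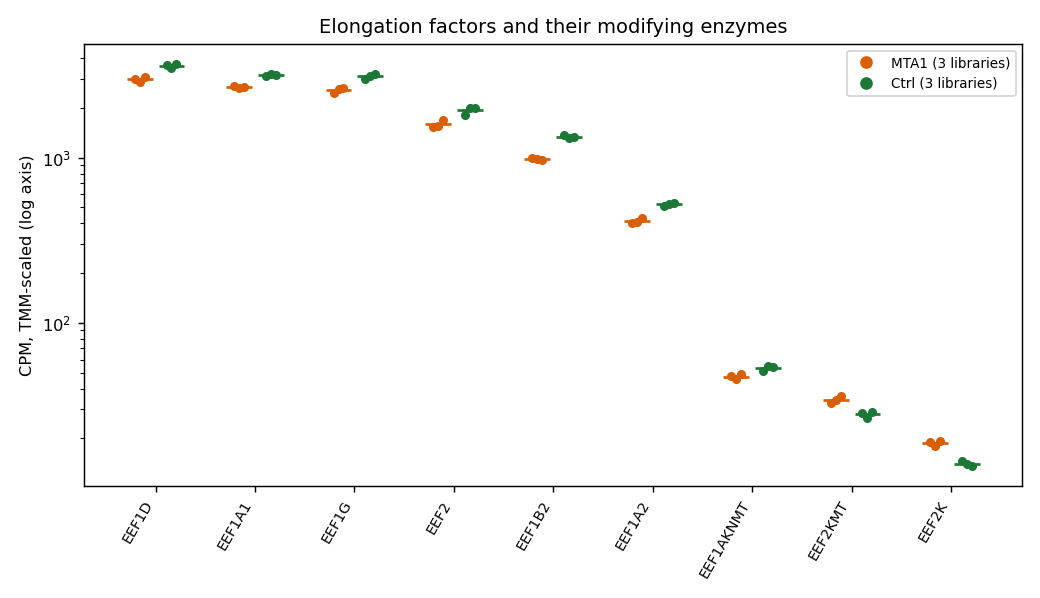
CPM on a log axis for the elongation factors and the enzymes that modify them; each point is 1 library, MTA1 left and Ctrl right, and short lines are means. From EEF1D to EEF1AKNMT every MTA1 library lies below the Ctrl libraries, and for EEF2KMT and EEF2K every one lies above.

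The members together took 2.05% to 2.10% of the counts of an MTA1 library and 2.21% to 2.27% of a Ctrl library. The eEF1 genes took the largest part, on average 0.988% in the MTA1 group and 1.15% in Ctrl. The eIF3 genes took 0.358% in the MTA1 group and 0.370% in Ctrl, and the eIF4 genes, without the read-through gene, 0.208% in the MTA1 group and 0.199% in Ctrl. These shares do not depend on the TMM scaling.

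The ratio of a factor to its paralog within a library also does not depend on the scaling, and 7 pairs were compared on the log2 scale of counts with 0.5 added. The ratio of EIF5A to EIF5A2 differed most, by 0.53 between the group means, but EIF5A2 has few counts. For EIF4E over EIF4E2 it was -3.10, -3.08 and -2.94 in the MTA1 libraries, against -3.27, -3.27 and -3.39 in the Ctrl libraries, a difference of 0.27. For EIF4G1 over EIF4G3 it was 3.03, 3.02 and 3.21 in the MTA1 libraries, against 2.85, 2.93 and 2.91 in the Ctrl libraries, a difference of 0.19, and for EIF4G1 over EIF4G2 the difference was 0.15. For EIF1 over EIF1B it was 3.24, 3.38 and 3.33 in the MTA1 libraries, against 3.10, 3.17 and 3.18 in the Ctrl libraries, a difference of 0.17. For EIF4A1 over EIF4A2 the difference was 0.11, with the limit on EIF4A1 given above. For EEF1A1 over EEF1A2 it was 0.083. In all 7 pairs the MTA1 libraries lay above the Ctrl libraries, and the 2-sided exact permutation p was 0.1, the smallest that 3 libraries against 3 can give, and 0.1 after adjustment over the 7 pairs. The order of the genes in a pair was fixed by name, so the common sign says nothing of its own.

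Levels of different genes can be compared only per length. In the deposited FPKM (fragments scaled for gene length and depth), the 5 highest members were elongation factors in both groups. The read-through gene SENP3-EIF4A1, which is not a member, holds most counts of the EIF4A1 locus. It averaged 257 ± 9.66 FPKM in the MTA1 group and 252 ± 7.61 FPKM in Ctrl, so the rank of EIF4A1 is not that of its locus. EEF1G averaged 881 ± 33.1 FPKM in the MTA1 group and 1016 ± 39.1 FPKM in Ctrl, and EEF1B2 463 ± 4.98 FPKM in the MTA1 group and 604 ± 7.80 FPKM in Ctrl (SD, n = 3 each). EEF2 averaged 360.0 ± 22.2 FPKM in the MTA1 group and 416 ± 23.8 FPKM in Ctrl. EEF1D averaged 287 ± 11.8 FPKM in the MTA1 group and 332 ± 6.76 FPKM in Ctrl, and EEF1A1 239.9 ± 4.59 FPKM in the MTA1 group and 272 ± 4.67 FPKM in Ctrl. These 5 kept their order, and the steps between them exceeded the SD of their libraries. EIF2S2, EIF5A and EIF5B followed in both groups: EIF5A averaged 179 ± 6.37 FPKM in the MTA1 group and 145 ± 7.62 FPKM in Ctrl, where it did not stand apart from EIF5B at 138 ± 10.6 FPKM.

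These levels depend on the length each gene was given. Dividing a gene's CPM, here on library totals, by its FPKM gives the length behind the deposited value. Over 8270 coding genes with at least 1 FPKM this length was a median of 1.51 times the longest GENCODE 29 transcript. The 5th and 95th percentiles were 1.13 and 2.91 times. For EIF3E the length was 42.7 kb, beside a longest transcript of 1.99 kb, or 21.5 times. For EIF3I it was 11 kb beside 1.46 kb, or 7.57 times. EIF4A1 stood at 3.35 times and EIF2A at 3.04 times. On the longest transcript, chosen as an alternative after the data were seen, EIF3E had 45.6 CPM per kb in the MTA1 group and 65.2 in Ctrl, which is close to EIF3H at 45 in the MTA1 group and 62.1 in Ctrl. The order of the leading factors moved too: EEF1D, at 801 CPM per kb in the MTA1 group and 971 in Ctrl, then stood above EEF2, at 506 in the MTA1 group and 612 in Ctrl. The length given to a gene divides out of its fold change between groups.

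**Figure D5:**
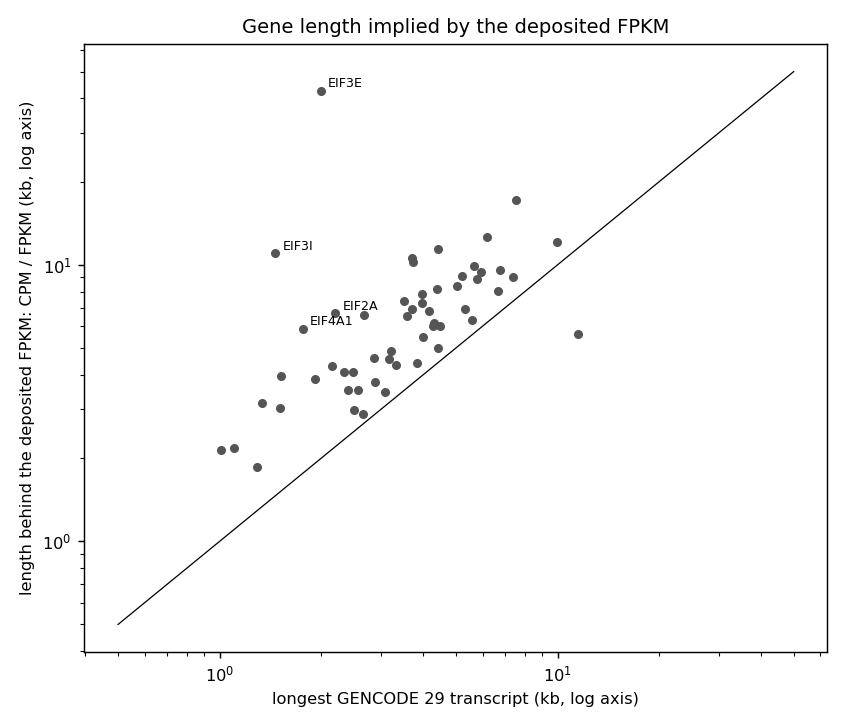
Length behind the deposited FPKM, as CPM over FPKM (vertical, kb, log axis), against the longest GENCODE 29 transcript (horizontal, kb, log axis). Points are the tested members, and the line marks equal lengths. EIF3E lies at 42.7 kb against 1.99 kb and EIF3I at 11 kb against 1.46 kb.

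Message length moved with the fold changes across the tested coding genes, so the members were read beside coding genes of like length. The tenth of tested coding genes with the shortest longest transcript had a median log2 fold change of -0.17 (611 of 1261 fell and 230 rose). The tenth with the longest had 0.074. Members that rose had a median transcript length of 4136 bases and members that fell 3164 bases. After the median of a member's own length class was subtracted, the median of all 55 tested members was -0.074, against -0.11 before. EIF3I, which was called lower, then stood at 0.038, and the other called members kept their sign.

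Further genes were described from a list of 59, of which 56 were tested. It holds genes that act on or beside these factors and 4 other messages known for a TOP tract, all of which fell. In the whole list 17 rose, 16 fell and 23 were not called, with a median log2 fold change of -0.034. The shares called, 17 and 16 of 56, are to be read beside the 29.5% and 28.6% of all tested genes. In each subgroup the called gene with the smallest p in each direction is given. Of 12 genes that act on eIF2 phosphorylation, 4 rose and 2 fell: DNAJC3, an inhibitor of eIF2 kinases, rose (0.56 ± 0.066), and PPP1CB, a phosphatase subunit, fell (-0.17 ± 0.045). Of 11 tested genes that control eIF4E, 4 rose and 4 fell. RPTOR, the mTORC1 subunit Raptor, rose (0.56 ± 0.049), and PDCD4, an inhibitor of eIF4A, fell (-0.51 ± 0.042).

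Within the same subgroup, and named after their values were seen, the eIF4E-binding proteins EIF4EBP1 (-0.26 ± 0.044) and EIF4EBP2 (-0.55 ± 0.060) fell, MTOR rose (0.19 ± 0.046), and LARP1, which binds TOP messages, was not called (-0.044 ± 0.045). Of 5 genes of poly(A) binding, PABPC4 rose (0.40 ± 0.038), as did 1 other, and PAIP2, an inhibitor of PABP, fell (-0.36 ± 0.047). Of 5 helpers at the start site, the helicase DDX3X rose (0.44 ± 0.043), as did 1 other, and MCTS1, a partner of DENR, fell (-0.22 ± 0.050). Of 4 tested genes of termination and rescue, GSPT1, the release factor eRF3a, rose (0.33 ± 0.039) and none fell.

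A subgroup of 13 tested genes held enzymes that modify eIF5A and the elongation factors, and also EEF1E1, which was not called. Of the 13, 4 rose and 4 fell. DPH7, of the diphthamide pathway that modifies eEF2, rose (0.38 ± 0.057). DOHH, which completes hypusine on eIF5A, fell (-0.49 ± 0.064); DHPS, which begins it, rose (0.45 ± 0.084) and was named after its value was seen. Neither of the 2 genes that release eIF6 from the large subunit, SBDS and EFL1, was called. The 4 listed messages of other proteins known for a TOP tract all fell, beside 28.6% of all tested genes. NAP1L1, a histone chaperone, had 1277, 1263 and 1293 CPM in the MTA1 libraries, against 2513, 2466 and 2468 CPM in the Ctrl libraries (log2 fold change -0.96 ± 0.039, edgeR adjusted p = 1.06e-13). TPT1 (-0.73 ± 0.041), RACK1 (-0.53 ± 0.040) and HNRNPA1 (-0.45 ± 0.043) were lower too. These 4 were chosen with earlier results of these data known and are not all such messages. PABPC1, listed under poly(A) binding, is also known for such a tract and was not called (0.069 ± 0.038).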

How the data were processed

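Total RNA of PC-3 cells was made into stranded libraries and sequenced as 150-nt read pairs, per the labels' protocols. The authors deposited whole-number read counts per gene and FPKM values, that is, counts scaled for length and depth, per the file headers and values. Neither the aligner nor the counter is given in the sources used here, and likewise the strand setting, build and annotation. Among tools, DESeq2 is named in the submitters' processing notes, with no role. The shMTA1 columns match the MTA1 samples by their names, which leaves the NC columns for Ctrl.

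Counts were tested in R 4.3.3 with edgeR 4.0.16: filterByExpr (minimum count 10), TMM, a 2-sided quasi-likelihood F test of group without further terms, and Benjamini-Hochberg adjustment over 15423 genes at 0.05. CPM uses TMM-scaled libraries, except in the sums of marker genes and the lengths behind the FPKM, which use library totals. The fit was tested on simulated data. Depth ran from 29909172 to 33849262 counts, and the biological coefficient of variation was 4.45%; replicates differed by 3.53 to 10.2 times counting noise, so none was counted as a repeat. Paralog ratios used exact permutation tests.

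Alternatives were DESeq2 1.42.0 (size factors and Wald test), library totals, no filter, 1 CPM in 3 libraries, limma 3.58.1 (voom, and log2 FPKM with 0.1 or 1 added), a block on the replicate number, the 20 most abundant genes left out, and each library left out. A length and GC correction and levels per kb of the longest transcript were added after seeing the data. Transcript lengths came from GENCODE 29 and starts from RefSeq (GRCh38.p14).

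Members, lists and alternatives were chosen with earlier results of these data known. Library values are given by rule for the 2 highest and 2 lowest called members of each complex with a mean of at least 2 CPM, both genes of each paralog pair and the 3 most abundant members; EIF3A, EIF4E3 and genes of other lists shown that way were chosen after their values were seen. Some marker genes of the cell line are not reported here.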

Additional observations from a re-analysis of the deposited data

How the results depend on the processing

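Under the other settings 14 to 19 members rose and 20 to 27 fell, and 34 of the 41 called members (14 higher and 20 lower) were called in the same direction in every setting that could test them, leaving aside the correction for length and GC content. With the replicate number as a block 16 rose and 26 fell, EIF3J being the addition. Deviations from the group means correlated by 0.067, -0.021 and 0.019 between libraries of equal number, and 1 of the 3 pairs matched its own number best, so the numbers were not taken to pair the libraries. The members' median log2 fold change was -0.0431 with library totals alone, -0.0625 with no filter, -0.046 with log2(FPKM + 0.1) and -0.0298 with log2(FPKM + 1). The median of all genes tested there was 0.0695, 0.0339, 0.0591 and 0.0274, so the members stood below it by a difference of -0.1126, -0.0964, -0.1051 and -0.0572, against -0.1126 in the values reported. With library totals, log2(FPKM + 0.1) and log2(FPKM + 1), EIF3B, which was not called, turned to 0.0304, 0.0298 and 0.0294, and EIF4A3, also not called, to 0.0467, 0.0456 and 0.0434; relative to the median of all genes both kept a negative sign with library totals (-0.0391 and -0.0228) and log2(FPKM + 0.1) (-0.0293 and -0.0135). Leaving out single libraries, other members without a call ran from -0.00577 to 0.0583 (EIF2B1), from -0.313 to 0.456 (EIF5AL1) and from -0.0357 to 0.0826 (EIF5B). With the length and GC correction, EIF2B4 (-0.0255), EIF2B5 (-0.0331), EIF4ENIF1 (-0.0172), EIF5AL1 (-0.0183) and EIF5B (-0.0144) changed sign without a call, EIF1AD, EIF3B and EIF5 became called lower, and EIF2B2 (0.066) and EIF3I (-0.0519) lost their calls. With DESeq2 size factors, no filter and the DESeq2 Wald test only 1 eIF2B subunit rose. The Wald test did not call EIF3CL (adjusted p = 0.122), and log2(FPKM + 1) did not call EIF4E3 (adjusted p = 0.0538). EIF1, EIF3I, EIF4E2 and EEF1AKNMT lost their calls with library totals alone and with both FPKM fits. Library totals called EIF2D, EIF2B5 and EIF4E higher, and both FPKM fits called EIF2B5 higher. The cause of the other changes was not tested. Genes near 1 CPM, such as EIF4E3, EIF5A2 and EIF5AL1, are limited by their counts.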
